A study of Ovis aries with 30 samples.

Results

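Thyroid hormone is made in the follicles of the thyroid, and 9 genes of this process were followed here through newborn lambs: TG, TSHR, SLC5A5, SLC26A4, DUOX2, IYD, PAX8, NKX2-1 and FOXE1. They were taken by name from a table of 28524 genes, and all 9 were found. Thyroid and perirenal brown fat (BAT) of 15 Romney lambs were sequenced, giving 30 libraries. Lambs were kept indoors for 2 days under cold conditions (4 °C, n = 6) or at ambient temperature (AT, 20–22 °C, n = 6), and 3 control lambs were sampled at the start, about a day after birth. All lambs were twins reared with their dams, 1 lamb per dam, and no gene was modified in any group. Treated lambs were therefore about 2 days older than controls, so age and indoor housing cannot be told apart in a comparison with control, and only cold against AT was made at 1 age. Each library is a whole piece of tissue from 1 lamb, in which fewer cells of a type and less RNA per cell cannot be told apart.

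The follicular cell takes up iodide from the blood through the sodium iodide symporter, encoded by SLC5A5, and passes it into the follicle lumen. Pendrin, encoded by SLC26A4, is the classical transporter for this second step. Thyroglobulin, encoded by TG, is the large protein on whose tyrosines iodine is fixed and coupled into hormone. Hydrogen peroxide for this step comes from the dual oxidase encoded by DUOX2, and the deiodinase encoded by IYD recovers iodide from tyrosines that were not used. TSHR encodes the receptor for thyrotropin, which drives the whole process, and PAX8, NKX2-1 and FOXE1 encode the transcription factors that define the follicular cell and act on genes such as TG and SLC5A5. In the newborn lamb the thyroid is active from birth, and its hormone is known to act on heat production in BAT.

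Positions are given for the Oar_rambouillet_v1.0 assembly, as in the authors' table, and counts cover the annotated exons of each gene. TG lies on chromosome 9 from 22956462 to 23207959 on the minus strand, with 48 separate stretches of exon. SLC5A5 lies on chromosome 5 (5259948 to 5272825), TSHR on chromosome 7 (96657001 to 96830180) and DUOX2 also on chromosome 7 (67513036 to 67531314). SLC26A4 lies on chromosome 4 (54668830 to 54729669), IYD on chromosome 8 (81639643 to 81668896) and PAX8 on chromosome 3 (63711819 to 63776952). NKX2-1 lies on chromosome 18 (45586353 to 45590209) and FOXE1, a gene of 1 exon, on chromosome 2 (52485324 to 52487862). Exons of DUOX2 share 106 bases with DUOXA2 and 187 bases with the uncharacterised LOC105612097 on the other strand, and those of PAX8 share 13 bases with LOC114113928. Whether the counting used strand is not given in the sources used here, and reads mapping to several places were counted, so values of DUOX2 and of its near copy DUOX1 are less certain than the others.

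Thyroid libraries held 25062784 to 30124871 counts and BAT libraries 31556500 to 37025998. The study left out 1 control lamb, which its own normalized values identify as lamb 238, so the comparisons with control rest on lambs 237 and 246, with lamb 238 added as an alternative. Markers of other tissues were not evenly spread between thyroid libraries. The summed normalized count of 9 skeletal muscle genes was 3425009 in lamb 240 (AT) and 304390 in control lamb 237, and 145 to 4357 in the other 13 libraries. The parathyroid hormone gene PTH reached 7128 normalized counts in control lamb 238 and at most 123 elsewhere. The summed count of 9 genes of the calcitonin-producing C cells, which also use NKX2-1, ran from 426 to 285170. Genes of the follicular epithelium other than the members summed to 58326 to 69552 in the 3 controls and 30518 to 47863 in the 12 treated lambs. Against controls 237 and 246, 8 of the 9 tested were lower in either treated group. Their median log2 fold change was -0.33 in cold and -0.63 in AT lambs, against -0.28 over all tested genes in both. KRT18 had the lowest value (-1.62 in cold, -1.88 in AT lambs), and KRT7 was higher (1.70 and 1.97). The 8 fibroblast genes summed to 12309 to 24735 in controls and 29217 to 142993 in treated lambs. Sums of 6 macrophage genes were 1318 to 1876 in controls and 1637 to 3922 in treated lambs, and sums of 8 endothelial genes 10546 to 31220 and 10207 to 22969. Of the defining epithelial markers, EPCAM was present in every thyroid library, while CDH16 was at or near 0. The part of these cell types in the results below was not tested, apart from the values given without the libraries concerned.

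Levels of different genes were compared as normalized count per kilobase of exon, over the 12 treated thyroids. TG stood far above the rest with a median of 235200 per kb, and alone it took 2.99% (lamb 240) to 9.26% of all counts of a treated library. IYD, the next of the members, was at 7717 per kb. The 3 transcription factors formed a narrow band, with FOXE1 at 4672, PAX8 at 4495 and NKX2-1 at 3689 per kb. SLC5A5 (1377), TSHR (1148) and DUOX2 (1057) were the lowest members with counts. TG exceeded IYD in 12 of 12 lambs, 17.1-fold to 58.4-fold, and IYD exceeded FOXE1 in 11 of 12. FOXE1 and PAX8 could not be ordered, since FOXE1 was higher in 7 of 12 lambs with a ratio of 0.873 to 1.37, and neither could SLC5A5, TSHR and DUOX2, whose neighbouring pairs were higher in 7 and 6 of 12 lambs. PAX8 exceeded NKX2-1 in 12 of 12 lambs, although by a median of only 1.16-fold.

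**Figure D1:**
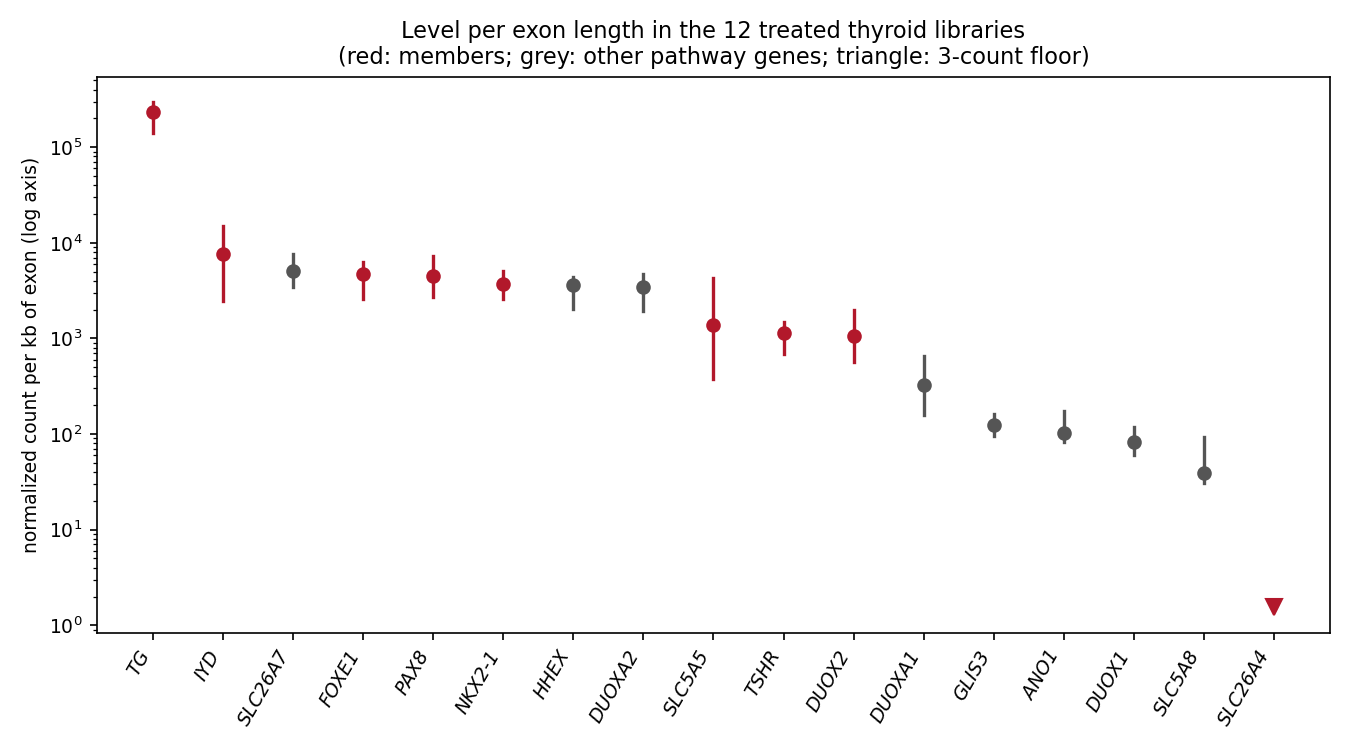
Normalized count per kb of exon on a log axis in the 12 treated thyroid libraries, with the median as a point and the lowest to highest library as a line, for the members (red) and other genes of the pathway (grey). TG is highest at 235200 and the triangle for SLC26A4 is the 1.54 per kb that 3 counts would give in the shallowest of these libraries by size factor.

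The pendrin gene SLC26A4 was the exception among the members. It was at 0 counts in 14 of 15 thyroid libraries and at 1 count in the remaining library (lamb 241), which makes 1 count among 418297116. A count of 0 allows up to 3 counts per library, and this limit covers counting error only. BAT gave 2 counts in 15 libraries. It was too low to be tested in any comparison, and the result refers to the exons annotated under this name. SLC26A7, an anion transporter of the same family that thyroid hormone synthesis also depends on, held 6190 to 43535 counts in the same libraries. Per kb, SLC26A7 was at least 996-fold above the limit for SLC26A4 in every thyroid library. ANO1 (median 104 per kb), SLC5A8 (39.5 per kb) and CLCN5 (19.5 per kb), the other genes listed for the apical side, were well below SLC26A7 (5095 per kb).

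TSHR, the thyrotropin receptor, ran from 2740 to 5248 normalized counts in cold lambs with a median of 4648. In AT lambs it ran from 2454 to 4778 with a median of 3442, and controls 237 and 246 had 3146 and 4554. The 3 groups overlapped, with both used controls inside the range of either treated group. Its log2 fold change (log2FC) was 0.13 ± 0.31 (SE) for cold against control (adjusted p = 0.795) and -0.16 ± 0.30 for AT against control (adjusted p = 0.74). The left-out control, lamb 238, was lowest of all libraries at 1366.

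SLC5A5, the symporter that brings iodide in, was the most variable member. Cold lambs had 1510 to 16830 normalized counts with a median of 4772, and AT lambs 1983 to 13769 with a median of 7317. Control 246 had 64052, control 237 had 11645 and control 238 had 2632. Lamb 246 stood far above every other library, the next being lamb 239 (cold), whereas lamb 237 lay within the treated range, so the groups overlapped. SLC5A5 was called lower in cold lambs, with a log2FC of -2.55 ± 0.80 (adjusted p = 0.043), and in AT lambs, with -2.46 ± 0.80 (adjusted p = 0.0468). The size of both differences rested on lamb 246. With lamb 238 in its place the log2FC was -0.14 (adjusted p = 0.935) in cold and -0.035 (adjusted p = 0.984) in AT lambs, and with all 3 controls it was -2.02 (adjusted p = 0.108) and -1.91 (adjusted p = 0.128). The calls were also marginal: with lamb 238 in place of lamb 237 the adjusted p was 0.0876 in cold and 0.106 in AT lambs, and leaving out 1 treated lamb gave 0.0153 to 0.0787 in cold lambs, with the call kept without lambs 239, 240, 243 or 245, and 0.0295 to 0.0749 in AT lambs, with the call kept without lambs 239, 242 or 243. In an exact permutation test of the log2 values (2-sided, 28 splits, smallest possible p = 0.0714) p was 0.143 for either comparison.

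TG, the thyroglobulin gene, gave 1612756 to 2482020 normalized counts in cold lambs, with a median of 2136419. AT lambs had 1191931 to 2203866 with a median of 1773528. Control 237 had 2615511, control 246 had 5237425 and control 238 had 1538057. Both used controls lay above every treated lamb, but the third lay below 11 of 12. TG was lower than control in AT lambs at the fold and adjusted p thresholds (log2FC -1.17 ± 0.23, adjusted p = 0.00441). In cold lambs the decrease passed the adjusted p only (log2FC -0.90 ± 0.23, adjusted p = 0.0176). The size of this change again rested on lamb 246. With lamb 238 in its place log2FC was 0.019 (adjusted p = 0.967) in cold and -0.24 (adjusted p = 0.527) in AT lambs, and with all 3 controls -0.58 (adjusted p = 0.158) and -0.84 (adjusted p = 0.047). With lamb 238 in place of lamb 237 it was -0.69 (adjusted p = 0.158) and -0.95 (adjusted p = 0.0534), while leaving out any 1 treated lamb kept the AT call (adjusted p 0.0022 to 0.0106). The exact permutation p was 0.0714 for each comparison with 2 controls, the smallest that 28 splits allow, and 0.405 and 0.167 with 3.

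DUOX2, the oxidase that supplies hydrogen peroxide, ran from 3600 to 10236 normalized counts in cold lambs with a median of 5391. AT lambs had 2939 to 7183 with a median of 5555, and controls 237, 246 and 238 had 4500, 10653 and 1812. Controls held both the highest and the lowest library, and the groups overlapped. The log2FC was -0.36 ± 0.38 in cold lambs (adjusted p = 0.526) and -0.55 ± 0.38 in AT lambs (adjusted p = 0.309).

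IYD, the deiodinase that recovers iodide, ran from 7587 to 18199 in cold lambs with a median of 10843. AT lambs had 2956 to 13682 with a median of 8313, and controls 237, 246 and 238 had 7131, 13856 and 4201. The groups overlapped, with lamb 240 (AT) lowest. The log2FC was 0.14 ± 0.45 in cold lambs (adjusted p = 0.851) and -0.33 ± 0.44 in AT lambs (adjusted p = 0.617).

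Among the transcription factors, PAX8 ran from 10063 to 18347 normalized counts in cold lambs (median 11036) and from 6872 to 16416 in AT lambs (median 11498). Controls 237, 246 and 238 had 10567, 18542 and 23981. NKX2-1 had 10537 to 14918 in cold lambs (median 10789), 7514 to 13199 in AT lambs (median 10892), and 10731, 14458 and 10616 in controls 237, 246 and 238. In all 3 groups these genes overlapped. FOXE1 ran from 11517 to 16141 in cold lambs (median 13576) and 6607 to 15731 in AT lambs (median 11293). Controls 237 and 246 had 9600 and 20297, on either side of the treated lambs other than lamb 240, and lamb 238 had 1810. FOXE1 in lamb 238 was thus below every other library although PAX8 was there at its highest. None of the 3 factors passed the test: log2FC against control was -0.26, -0.10 and -0.14 for PAX8, NKX2-1 and FOXE1 in cold lambs (adjusted p 0.565 to 0.773) and -0.37, -0.26 and -0.41 in AT lambs (adjusted p 0.302 to 0.394). Some other sets of lambs did pass the adjusted p. PAX8 in AT lambs was at -0.90 (adjusted p = 0.0345) with lamb 238 in place of lamb 237, and with all 3 controls but without lambs 240 and 237 it was at -0.80 in cold (adjusted p = 0.0263) and -0.79 in AT lambs (adjusted p = 0.034). Without lambs 240 and 237 the only control left was lamb 246, the highest library for FOXE1, and FOXE1 in AT lambs was then at -0.75.

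**Figure D2:**
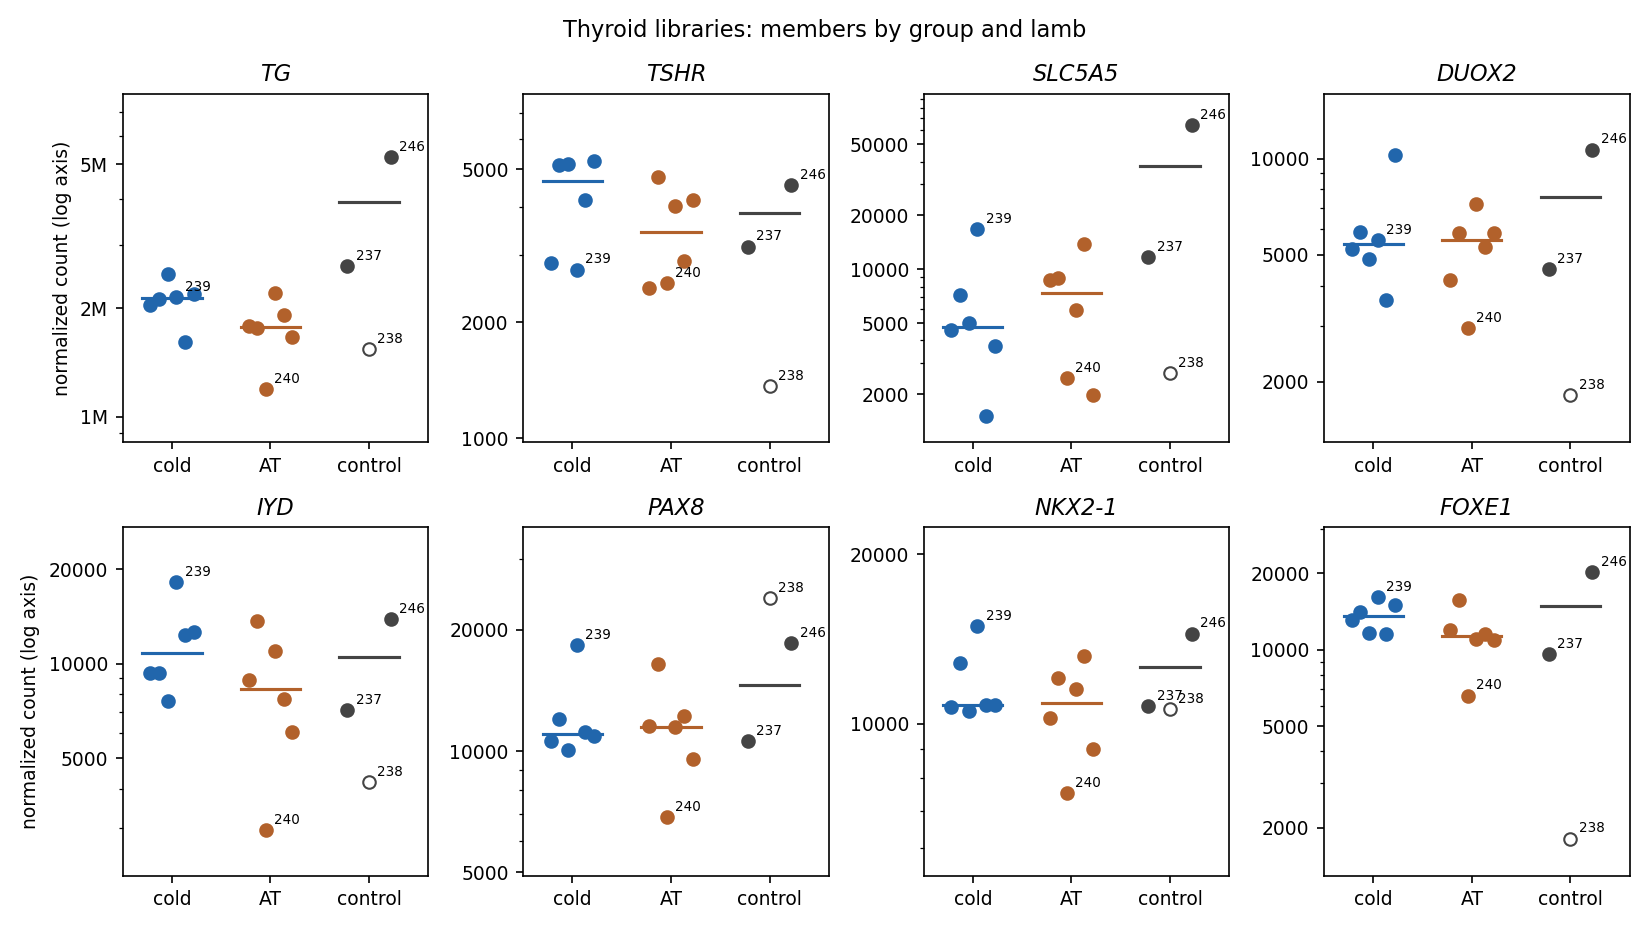
Normalized count (log axis) of 8 members in each thyroid library, by group, with 1 point per lamb; lines are group medians without lamb 238, which is drawn as an open circle. Control 246 is highest for TG, SLC5A5, DUOX2 and FOXE1, and lamb 240 (AT) is lowest of the treated lambs for TG, DUOX2, IYD, PAX8, NKX2-1 and FOXE1.

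Cold was compared with AT to ask whether temperature acted on these genes at the same age. None of the 8 tested members was called, and none of 16122 genes was (0% of them), while 870 genes had an unadjusted p under 0.05 and DESeq2 called 2 genes, neither a member. Of the members, 7 of 8 had a log2FC above 0, with a median of 0.23, against 0.0048 over all tested genes. TG was higher in cold lambs by a log2FC of 0.27 ± 0.17 (95% interval -0.07 to 0.61, adjusted p = 0.923) and IYD by 0.47 ± 0.32 (-0.15 to 1.10, adjusted p = 0.923). SLC5A5 had the widest interval, -1.32 to 1.13, which reaches past the fold threshold in both directions. NKX2-1 had the narrowest, -0.14 to 0.45. In exact permutation tests over 924 splits, p was 0.0844 for TG, 0.117 for FOXE1 and 0.162 to 0.792 for the other 6 members (2-sided). Without lamb 240, the lowest AT lamb, the TG difference was 0.17 and the members' median was 0.11, with 2 members below 0. With scaling to the follicular epithelium markers the median was 0.01, with 4 below 0. The members' values were related between lambs, so their signs are not separate results.

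Against control, 1 of 8 tested members was called in cold lambs (SLC5A5) and 2 of 8 in AT lambs (TG and SLC5A5) at |log2FC| of at least 1 and adjusted p below 0.05. Over all tested genes 8.04% were called in cold and 7.8% in AT lambs. Both comparisons use the same 2 controls, so their likeness is not a separate result. The median log2FC of the members was -0.20 in cold and -0.39 in AT lambs, and that of all genes was -0.28 in both. The reference genes gave control 246 a size factor of 0.771 where TMM gave 1.01. Under TMM, which centres the genes by construction, the median of all genes was 0.02 in cold and 0.05 in AT lambs, no member was called, TG in AT lambs passed the adjusted p alone (log2FC -0.79, adjusted p = 0.0385), and SLC5A5 had a log2FC of -2.19 (adjusted p = 0.0977) and -1.99 (adjusted p = 0.124). The members' direction changed with scaling as well: NKX2-1 went from -0.10 to 0.21 in cold and from -0.26 to 0.10 in AT lambs.

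**Figure D3:**
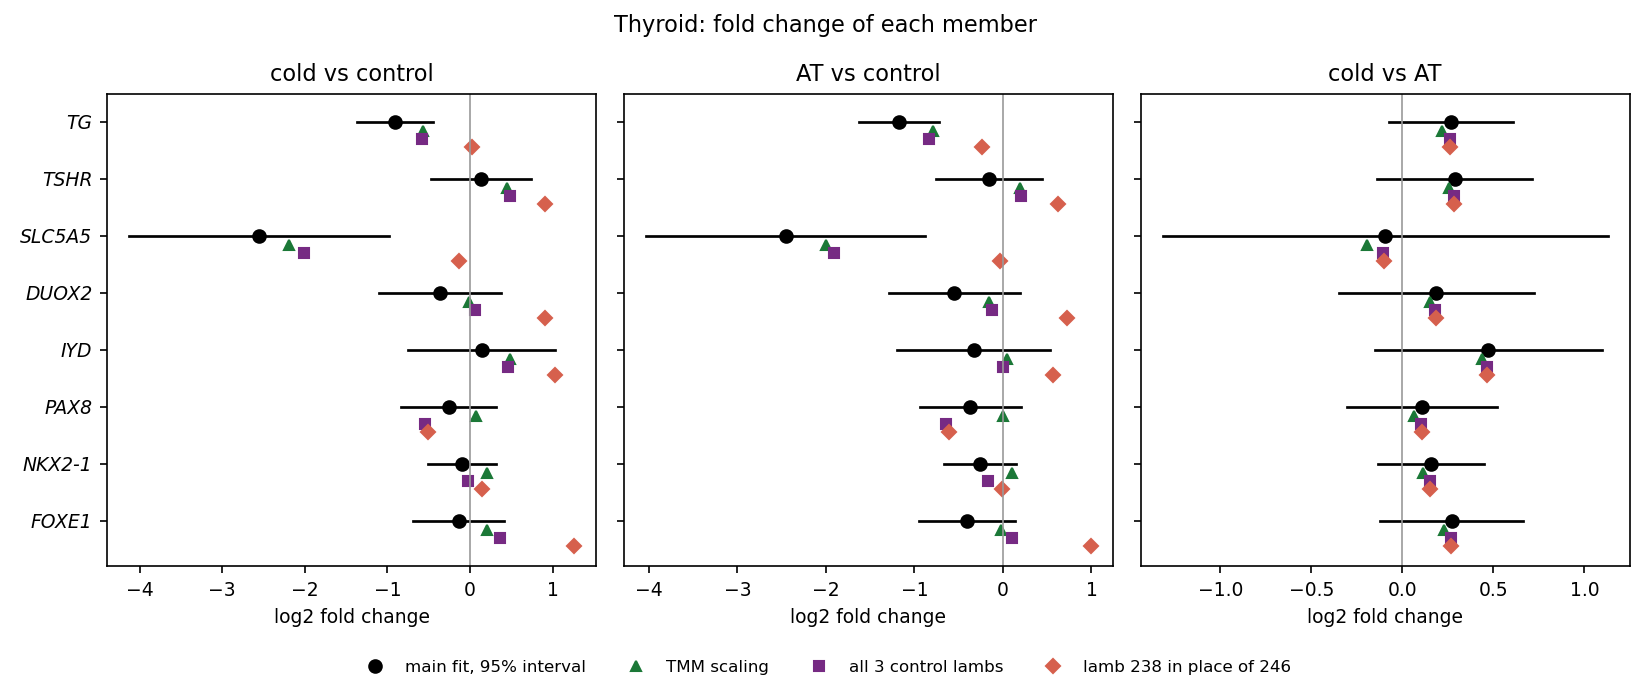
Fold change (log2) of 8 members in thyroid for cold against control, AT against control and cold against AT; black points are the reported fit with 95% intervals, and coloured points the fit with TMM, with all 3 controls, or with lamb 238 in place of lamb 246. SLC5A5 moves from -2.55 to -0.14 in cold lambs when lamb 246 is replaced, and in cold against AT the interval of every member spans 0.

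Ratios between genes within a library do not depend on scaling. TG gave 243.7 counts per count of NKX2-1 in control 237 and 362.3 in control 246, above the 144 to 235.5 of the 12 treated lambs, whereas control 238 gave 144.9. NKX2-1 is also used by C cells, whose genes varied widely between libraries. Per 1000 counts of PAX8, TG gave 247500 in control 237, 282500 in control 246 and 64140 in control 238. Treated lambs gave 107200 to 246600, so control 237 was barely above the highest of them. SLC5A5 gave 12.2 counts per 1000 counts of TG in control 246 and 0.937 to 7.83 in treated lambs, with 4.45 in control 237 and 1.71 in control 238. The high SLC5A5 of lamb 246 was thus high relative to TG too. In treated lambs FOXE1 gave 878 to 1392 counts per 1000 of NKX2-1 and, as closely, 880 to 1379 per 1000 of PAX8. Lamb 238 gave 170.5 and 75.5.

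The rest of the pathway was described with a list of 38 genes in 6 groups, of which 37 were in the table and 30 could be tested. In cold lambs 9 of 30 were lower than control at an adjusted p below 0.05 and 0 were higher, and in AT lambs 9 were lower and 0 higher. Over all tested genes, 16.9% were lower and 2.34% higher in cold, and 18.7% lower and 2.23% higher in AT lambs. None passed in cold against AT. By group, the lower genes in cold lambs were 3 of 8 in thyrotropin signalling (ADCY3, ADCY6 and PRKAR1A), 1 of 3 on the basolateral side (KCNQ1), 1 of 4 on the apical side (ANO1), 2 of 6 in oxidation (TXNRD1 among them), 0 of 3 in thyroglobulin retrieval and 2 of 6 among transcription factors and regulators (GLIS3 and JAG1). AT lambs gave the same genes except that ANO1 (log2FC -0.66, adjusted p = 0.0763) did not pass and DUOXA2, the maturation factor of DUOX2, did (log2FC -0.97, adjusted p = 0.0329). Under TMM only 4 of 30 were lower in either comparison, and with lamb 238 in place of lamb 246 also 4, with 2 higher in cold lambs. The count was 1 of 30 in either comparison with scaling to the epithelial markers.

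GLIS3, a zinc finger factor needed for thyroid hormone synthesis downstream of the thyrotropin receptor, had a log2FC of -0.92 ± 0.15 in cold (adjusted p = 0.00246) and -1.07 ± 0.15 in AT lambs (adjusted p = 0.00107). GLIS3 kept an adjusted p below 0.05 under TMM (0.0268 and 0.0127) and with lamb 238 in place of lamb 246 (0.0244 and 0.0096), and lost it with scaling to the epithelial markers (0.216 and 0.223). KCNQ1, a potassium channel subunit of the basolateral side, had the largest log2FC of those that passed (-2.30 and -2.39), which was -0.46 and -0.54 with lamb 238 in place of lamb 246 (adjusted p = 0.584 and 0.526).

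Between treated lambs the members moved together to a degree that depended on lamb 240. Values were centred within each group, and Pearson's r is given as a description across 12 libraries, all scaled with the same 3 reference genes. Of 28 pairs, 27 had a positive r, with a median of 0.55. PAX8 was closest to IYD (0.90), NKX2-1 (0.89) and FOXE1 (0.88), and SLC5A5 was closest to NKX2-1 (0.83). TSHR was near or below 0 with PAX8 (0.04), NKX2-1 (0.02) and SLC5A5 (-0.25). It was at 0.16 with IYD, 0.26 with FOXE1, 0.33 with TG and 0.52 with DUOX2. Lamb 240, whose library held the muscle transcripts, was below its group mean for all 8 members by a median of 0.70 (log2), as was lamb 232 (cold) by 0.13. Without lamb 240 the median r was 0.33 over 11 lambs and 23 of 28 pairs were positive. The links of PAX8 with IYD (0.83), NKX2-1 (0.82) and FOXE1 (0.80) and of SLC5A5 with NKX2-1 (0.84) stayed high, and those of TG with PAX8 (0.00), IYD (-0.06) and FOXE1 (0.05) were near 0, with 0.26 for TG and NKX2-1. Lamb 239 was the highest cold lamb for PAX8, IYD, NKX2-1, FOXE1 and SLC5A5 alike. How far the high links rest on lamb 239 was not tested. Under TMM the median was 0.58.

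**Figure D4:**
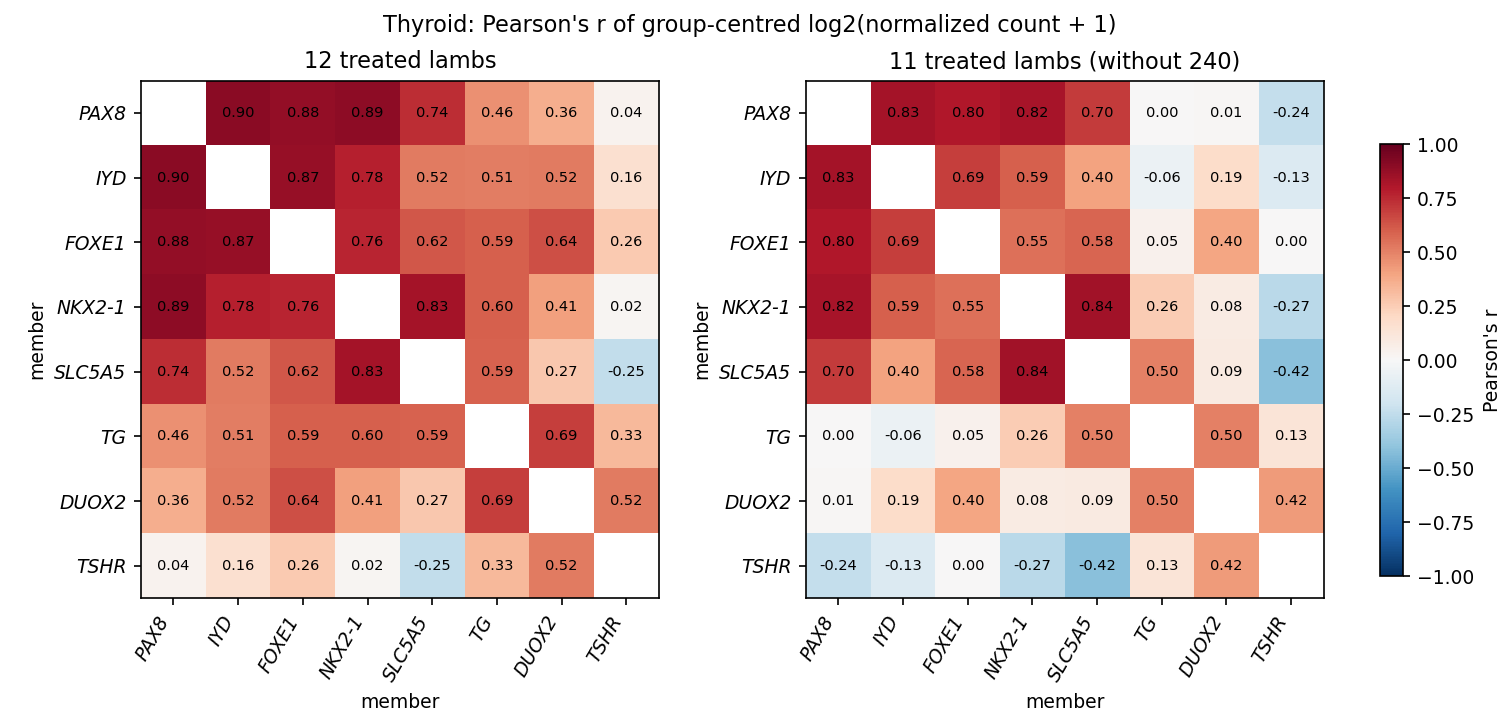
Pearson's r between members over the treated thyroid libraries, from log2(normalized count + 1) centred within cold and AT, with all 12 lambs (left) and without lamb 240 (right). PAX8, IYD, FOXE1 and NKX2-1 form the block of high values in both, 0.76 to 0.90 and 0.55 to 0.83, while TG on the right is near 0 with PAX8, IYD and FOXE1 and at 0.26 with NKX2-1.

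Among 13028 other tested genes with a symbol, those most like TG over the 12 treated lambs were STRBP (r = 0.96), GRID1 (0.95), RTL8C (0.93), HHEX (0.93) and SSBP3 (0.92), and without lamb 240 these stood at 0.86 to 0.93. All genes named in this paragraph were picked for their r in these same lambs, so extreme values were bound to appear. The values without lamb 240 come from the same lambs and are no separate check. HHEX encodes a homeobox factor of the early thyroid bud. The lowest were KHDRBS3 (-0.88), LAMB3 (-0.86) and FZD10 (-0.84). Among the genes most like the mean of the members were TMEM8A (0.96), LMLN (0.95), CDH15 (0.94) and LLGL2 (0.93), and the least like it were TUBB (-0.96), BTG3 (-0.95) and ILK (-0.93).

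In BAT, the other tissue of the same lambs, counts of the members served as background. UCP1, the uncoupling protein that defines brown fat, had 359 to 40601 counts in the 15 BAT libraries and 3 to 378 in thyroid, so the lowest BAT library lay within the thyroid range. TG had 10 to 1160 counts in BAT libraries against 901630 to 4039959 in thyroid. PAX8 had 1 to 51 against 5198 to 19054, and DUOX2 0 to 37 against 1162 to 11378. SLC5A5 summed to 41 counts over 15 BAT libraries, IYD to 11, NKX2-1 to 9, TSHR to 6 and FOXE1 to 2. No member's BAT libraries overlapped with thyroid except those of SLC26A4. The share of all genes whose libraries separated in this way was not counted, so this is a description only. A fit over both tissues used the 12 treated lambs, without a term for the lamb that gave both. The 8 members that entered it were called higher in thyroid, as were 13% of 16800 genes. TSHR, SLC5A5, IYD, NKX2-1 and FOXE1 entered only through their thyroid counts and so had to differ, and their calls are no result. Of the 3 that also passed the filter in BAT, DUOX2 differed least, with a log2FC of 6.87 ± 0.23 (adjusted p = 8.38e-18). PAX8 followed at 8.22 ± 0.32 (adjusted p = 1.18e-16) and TG at 12.37 ± 0.91 (adjusted p = 4.37e-11). With a term for the lamb the values were 6.88 ± 0.15 for DUOX2, 8.30 ± 0.32 for PAX8 and 13.62 ± 0.75 for TG.

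**Figure D5:**
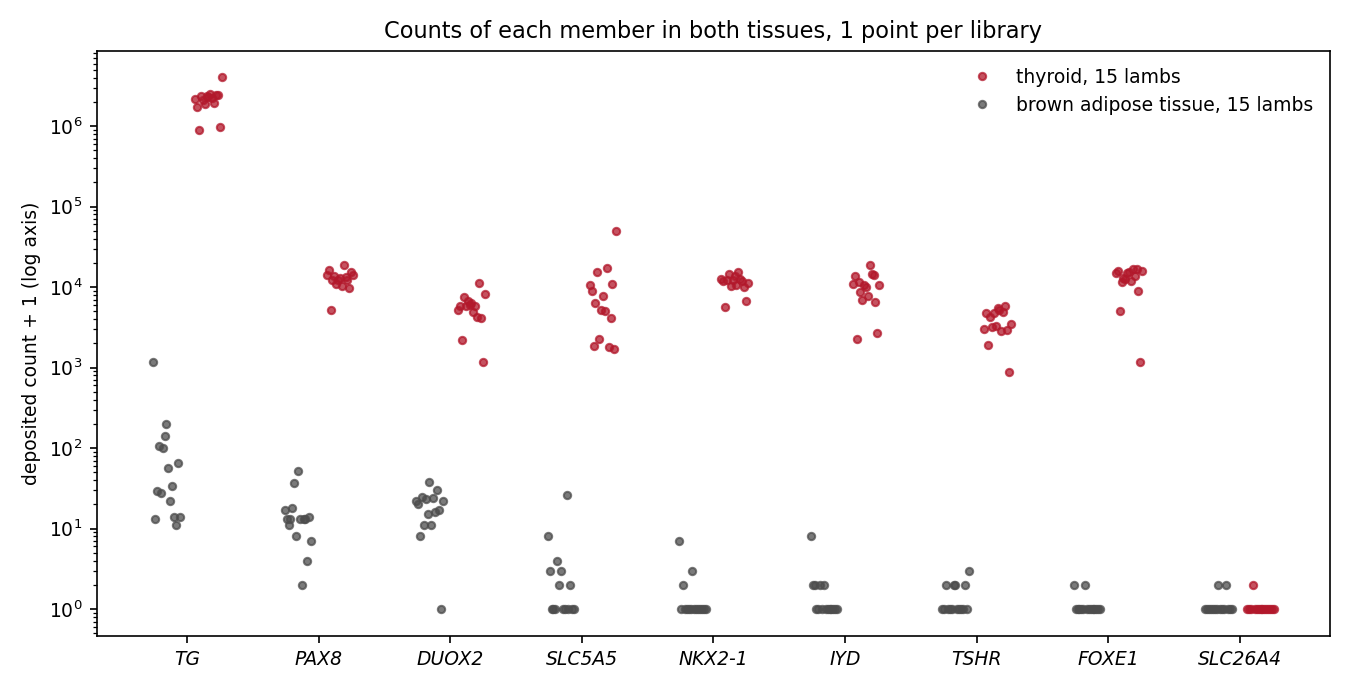
Deposited count + 1 on a log axis for each member in thyroid (red) and BAT (grey), 1 point per library and 15 libraries per tissue. TG reaches 1160 counts in the BAT of lamb 233, all thyroid values of 8 members lie above all BAT values, and SLC26A4 is at 0 or 1 count in both tissues.

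Only TG, DUOX2 and PAX8 had enough counts in BAT for a test, and none was called, where 1.21% of genes were called in cold against control, 6.07% in AT against control and 0.275% in cold against AT. The TG value for AT against control, a log2FC of 4.28 ± 1.97 (adjusted p = 0.186), came with 1 high AT library and a low pair of used controls, 237 and 246, and cold against control gave 2.86 ± 1.87 (adjusted p = 0.449). TG had 1160 counts in the BAT of lamb 233 and 12 to 106 in the other 5 AT lambs, 13 to 199 in cold lambs, and 10, 64 and 13 in controls 237, 238 and 246. In that library IYD (7 counts) and NKX2-1 (6 counts) were also at their highest for BAT. TG gave 193.3 counts per count of NKX2-1 there and 174.5 in the thyroid of the same lamb. The source of these counts was not tested.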

How the data were processed

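Poly(A) RNA of BAT and thyroid was sequenced as paired-end reads, and each library is a separate lamb and tissue. The submitters' processing notes name FastQC 0.11.9, Trimmomatic 0.39, STAR 2.7.7a and Subread 2.0.0. The authors mapped reads to Oar_rambouillet_v1.0 and deposited 1 table of raw counts per gene from featureCounts, multimapping reads included. All 30 count columns were used. Accessions of that build were named as chromosomes through gene symbols shared with the ARS-UI_Ramb_v3.0 annotation, and no coordinate of the latter was used.

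Counts were divided by size factors from ACTB, RPL19 and HUWE1, as in the study. A gene entered the test when 10 or more libraries of a tissue each held 10 or more reads for it. Each tissue was fitted with edgeR 4.0.16 (quasi-likelihood, robust) in R 4.3.3, and p-values were adjusted by Benjamini-Hochberg over all tested genes. The SE was derived from log2FC and F, and 95% intervals are 1.96 SE on either side. RNA integrity numbers given by the study served as a covariate in 1 alternative. Exact permutation tests used log2(normalized count + 1). The tests were checked on simulated data. Named were the 9 members, pathway genes passing the adjusted p or on which a result turned, and the 5 genes most and 3 least like TG or the members' mean. Members and all lists were chosen with earlier results of these data known. Alternatives without lambs 240 and 237, and with all 3 controls under TMM, were added after seeing the data. Some genes that this rule names are not reported here.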

Additional observations from a re-analysis of the deposited data

Results flagged for a closer look

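Within groups of 6, 22 sets of member values were examined for a single library far from the others, and 4 were found. Chance gives about 1 set in 20 for normally distributed values, which these skewed counts are not. On the log2 scale the gap of the highest library was 0.71 of the group's range for PAX8, still past the limit for 6 values, and 0.35 for SLC5A5, 0.53 for DUOX2 and 0.53 for TG in BAT, all short of it. SLC5A5 in the thyroid of cold lamb 239 was 16830 normalized counts, against 1510 to 7162 in the other 5 cold lambs. PAX8 in the same library was 18347, against 10063 to 11996. DUOX2 in the thyroid of cold lamb 244 was 10236, against 3600 to 5903. TG in the BAT of AT lamb 233 was 1093 normalized counts, against 12.7 to 107.4 in the other 5 AT lambs.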

How the results depend on the processing

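Calls against control depended on scaling and on the controls, and the cause was not tested. In cold lambs the count of members called, 1, was 0 with TMM, DESeq2 median-of-ratios, scaling to follicular epithelium markers, all 3 controls (also with TMM, or without lambs 240 and 237), no filter or only the 2 groups compared, and 2 with the adjusted p alone or without lambs 240 and 237, which left 1 control assumed to vary like the other groups. In AT lambs the count, 2, was 0 with the 3 scalings and all 3 controls (also with TMM, or without lambs 240 and 237), and 1 with no filter, filterByExpr, the RNA integrity number or only the 2 groups. Leaving out 1 lamb (with lamb 238 in place of a control) gave 0 to 1 in cold and 0 to 2 in AT lambs. No member was called in cold against AT or in BAT under any alternative run, and 8 were called higher in thyroid than BAT with the replicate block (the same lamb in both tissues), TMM or no filter, 5 of which had to differ.

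Log2FC values changed sign as follows. With TMM, cold lambs gave PAX8 0.069, NKX2-1 0.21 and FOXE1 0.20, and AT lambs TSHR 0.19, IYD 0.046, PAX8 0.0047 and NKX2-1 0.10. With median-of-ratios, cold gave PAX8 0.070, NKX2-1 0.21 and FOXE1 0.20, and AT TSHR 0.18, IYD 0.038 and NKX2-1 0.093. With epithelium scaling, cold gave DUOX2 0.10, PAX8 0.16, NKX2-1 0.285 and FOXE1 0.30, AT gave TSHR 0.45, DUOX2 0.11, IYD 0.35, PAX8 0.29, NKX2-1 0.35 and FOXE1 0.26, and cold against AT gave DUOX2 -0.012, PAX8 -0.13 and NKX2-1 -0.069. With all 3 controls, cold gave DUOX2 0.060 and FOXE1 0.36, and AT TSHR 0.20 and FOXE1 0.10. With TMM added, cold gave DUOX2 0.34, NKX2-1 0.15 and FOXE1 0.66, and AT TSHR 0.45, DUOX2 0.19, IYD 0.27, NKX2-1 0.036 and FOXE1 0.43. Without lambs 240 and 237, cold gave TSHR -0.12 and IYD -0.27, and cold against AT PAX8 -0.0028. With all 3 controls besides, cold gave FOXE1 0.29, AT TSHR 0.31, IYD 0.076 and FOXE1 0.15, and cold against AT PAX8 -0.013. With the RNA integrity number, SLC5A5 in cold against AT was 0.050.

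Leaving out 1 lamb changed a sign in cold against control for TG (-0.96 to 0.019), DUOX2 (-0.60 to 0.91), IYD (-0.044 to 1.03), NKX2-1 (-0.19 to 0.14) and FOXE1 (-0.20 to 1.26). In AT against control it did so for TSHR (-0.24 to 0.62), DUOX2 (-0.66 to 0.73), IYD (-0.49 to 0.57) and FOXE1 (-0.50 to 0.99), and in cold against AT for SLC5A5 (-0.67 to 0.20), DUOX2 (-0.035 to 0.30) and PAX8 (-0.056 to 0.23). With 2 controls, 1 lamb can set a value, and low counts limit what can be said of SLC26A4 and of the members in BAT.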
